A study of Homo sapiens with 24 samples.

Results

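TXNIP, ARRDC4, ARRDC3, MLXIPL, TXN, TXNRD1, SESN1, SESN2 and SESN3 are glucose and stress sensing genes, with the thioredoxin partners of TXNIP, and were measured here under inhibitors of the bromodomain and extra-terminal (BET) proteins. The cells were HepG2, a line derived from a human hepatocellular carcinoma. The 9 genes were taken by symbol from the gene count files, which list 26475 symbols, and all 9 were present. They were chosen by what BET inhibition did to some of them in these same libraries, so their differences between an inhibitor and its control are a description and carry no test. The series holds 24 RNA sequencing libraries in 8 groups of 3. One set of groups received the solvent DMSO, ABBV-075 at 50 nM, or ABBV-744 at 50 nM or 500 nM. The other set received interferon gamma (IFNγ) alone, or IFNγ together with 1 of these inhibitor treatments. The study's methods give 12 h for ABBV-075 and list DMSO together with treatments of 24 h, so the times of ABBV-075 and DMSO may differ. The times of the other groups and the dose of IFNγ are not given in the sources used here. ABBV-075 (mivebresib) binds both bromodomains of the BET proteins, and ABBV-744 prefers the second bromodomain. All groups are cultures of 1 cell line, and the labels number 3 replicates per group without saying whether they came from separate cultures. The study's methods call its samples, DMSO and ABBV-075 among them, independent, and do not describe the ABBV-744 or IFNγ libraries. The p-values therefore measure the spread between these libraries, which may be technical.

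TXNIP and its relatives ARRDC3 and ARRDC4 are alpha-arrestins. TXNIP protein binds reduced thioredoxin and helps to remove glucose transporters from the cell surface, and its gene is switched on by glucose through the transcription factors MLXIPL (ChREBP) and MLXIP (MondoA), each paired with MLX. Thioredoxin (TXN) reduces disulfides in other proteins and is itself reduced by thioredoxin reductase 1 (TXNRD1), an NRF2 target. The sestrins are stress-induced proteins: SESN1 and SESN2 are targets of p53, SESN2 also of ATF4, SESN3 of FOXO factors, and they restrain the growth kinase complex mTORC1 through the GATOR complexes.

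The promoters of TXNIP and ARRDC4 are shown because both genes are known to respond to glucose through such sites and because they were the alpha-arrestins with the highest fold changes under ABBV-075. On the hg38 assembly (GENCODE v44), TXNIP spans chromosome 1 from 145992435 to 145996579 on the minus strand and ARRDC4 spans chromosome 15 from 97960703 to 97973833 on the plus strand. Each run holds the 250 bases before the transcription start that RefSeq gives (assembly GRCh38.p14), and it is written 5′ to 3′ on the strand of the gene. Capitals mark motif matches, which are described below.
TXNIP promoter, chr1:145996580-145996829, minus strand: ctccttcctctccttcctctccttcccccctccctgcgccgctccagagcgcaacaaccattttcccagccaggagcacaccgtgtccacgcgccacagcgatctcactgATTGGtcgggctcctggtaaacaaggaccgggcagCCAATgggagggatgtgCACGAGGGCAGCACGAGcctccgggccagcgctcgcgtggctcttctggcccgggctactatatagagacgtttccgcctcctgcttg
ARRDC4 promoter, chr15:97960453-97960702, plus strand: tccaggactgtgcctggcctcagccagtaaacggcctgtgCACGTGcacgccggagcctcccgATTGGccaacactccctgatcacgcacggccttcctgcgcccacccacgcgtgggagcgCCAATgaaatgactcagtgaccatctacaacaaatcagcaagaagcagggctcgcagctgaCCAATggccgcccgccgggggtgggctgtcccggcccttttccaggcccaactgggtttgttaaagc
The matches were searched on both strands in the 250 bases before each of 35116 RefSeq starts, among them 14 starts of the 9 genes. The long capital run of TXNIP, 88 to 72 bases before its start, holds a pair of half-sites, each CACGNG or its reverse CNCGTG, with 5 bases between them. This is the spacing of a carbohydrate response element, the site of ChREBP and MondoA, and 0.0655% of all promoters (23 of 35116) held such a pair. No other start of the 9 genes held it. The first capital run of ARRDC4, 210 to 205 bases before the start, is the E-box CACGTG, found in 6.34% of all promoters. The shorter runs are CCAAT or its reverse ATTGG, at 2 positions in TXNIP and 3 in ARRDC4, and 32% of all promoters held at least 1. The core TGACNNNGC of the antioxidant element of NRF2 was found in 10.9% of all promoters and, among the 9 genes, before starts of TXNRD1 and SESN1. TATAAA was found in 10.7% of all promoters and before TXN alone of the 9 genes. A match is a description of the letters in this window and says nothing of binding in these cells.

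The files held between 23037861 and 28925049 reads per library, of which 56% to 69.4% aligned to several places and 12% to 16.8% were counted on genes. Gene counts came to between 2978982 and 4304103 per library. The reporter genes were checked against the labels. HEXIM1, which rises when BET proteins are inhibited, was at 50.6 to 56.8 CPM (counts scaled to library size) in DMSO and at 137.0 to 151.9 CPM with ABBV-075, and the interferon target IRF1 was at 209.8 CPM or more with IFNγ alone and at 13.7 CPM or less in DMSO. HEXIM1 was also above its control in the other inhibitor groups, except with IFNγ and ABBV-744 at 50 nM, where its 38.7 to 55.5 CPM overlapped the 44.8 to 49.3 CPM of IFNγ alone. ALB, which marks hepatocytes, had at least 5980 counts in every library. PTPRC and CD3E, which mark leukocytes and T cells, and the fibroblast gene COL1A2 had 0 counts, and of 7 markers of other cell types only CD68, a macrophage gene, passed the filter (-0.81 ± 0.21 with ABBV-075 against DMSO, adjusted p = 0.00986). Of 8 hepatocyte markers, 1 rose in that comparison, APOB (0.84 ± 0.16, adjusted p = 0.00167), and none fell. The ABBV-075 library of replicate 3 was the least like its partners (r of log2 CPM with replicate 1 = 0.9583 across genes). No replicate pair agreed within sampling noise. Across the libraries, the log2 deviation of genes from their mean changed by between -0.31 and 0.45 for each 10 points of GC content, and this GC trend differed between groups, which touches several results below.

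TXNIP had the highest fold change of the members under ABBV-075 against DMSO, while with IFNγ present SESN3 and ARRDC4 had higher ones. Its CPM, scaled with TMM factors, was 30.8, 29.7 and 18.8 in the DMSO libraries and 136.6, 174.9 and 181.6 in the ABBV-075 libraries. With ABBV-744 at 50 nM it was 32.2, 41.5 and 50.2 CPM, and at 500 nM 50.0, 57.4 and 54.6 CPM. Every ABBV-075 library was far above every other library without IFNγ. In the presence of IFNγ the libraries read 31.6, 33.4 and 28.3 CPM for IFNγ alone and 140.5, 134.1 and 139.8 CPM with ABBV-075 added. ABBV-744 added to IFNγ gave 34.7, 38.1 and 34.8 CPM at 50 nM and 53.9, 50.7 and 46.1 CPM at 500 nM. The group means had the same order of compounds and doses with and without IFNγ, the libraries of both ABBV-744 doses overlapped without IFNγ, and the groups did not overlap between any inhibitor treatment and its control. The log2 fold change against DMSO was 2.61 ± 0.19 (standard error, n = 3 against 3) for ABBV-075, 0.65 ± 0.17 for ABBV-744 at 50 nM and 1.04 ± 0.15 at 500 nM. Against IFNγ alone it was 2.14 ± 0.12, 0.23 ± 0.13 and 0.68 ± 0.13 in the same order. With a correction for each library's GC trend, the values were 2.56, 0.78 and 1.10 against DMSO, and 2.11, 0.04 and 0.61 against IFNγ alone. In bulk RNA these values are shares of a library, so that more TXNIP RNA per cell and more cells with TXNIP RNA cannot be told apart.

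**Figure D1:**
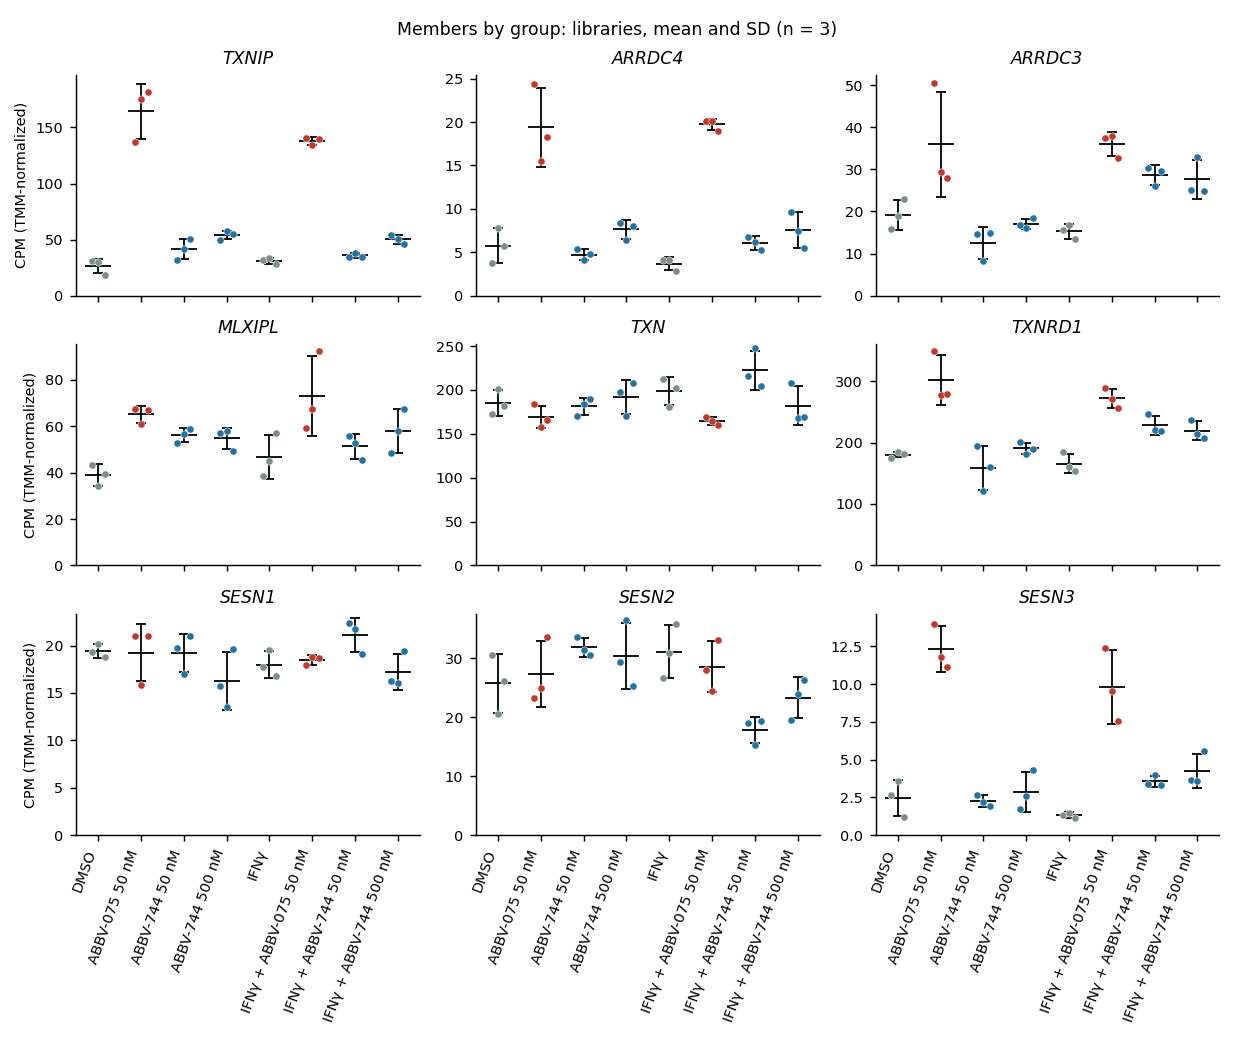
Level of each member in CPM (y axis, TMM-normalized, from 0) in the 8 groups (x axis); points are the 3 libraries of a group, the black bar is their mean and the whiskers their SD, with gray for no inhibitor, red for ABBV-075 and blue for ABBV-744. The red points of TXNIP, ARRDC4 and SESN3 lie above all gray and blue points in their panels, while the panels of TXN and SESN1 show groups that largely overlap.

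ARRDC4, the closest relative of TXNIP in its response to glucose, was low in these cells and was raised mainly by ABBV-075. It had 3.75, 7.77 and 5.72 CPM in DMSO (14 to 35 counts) and 24.4, 15.5 and 18.3 CPM with ABBV-075. The values were 5.37, 4.08 and 4.76 CPM with ABBV-744 at 50 nM and 8.43, 6.41 and 8.05 CPM at 500 nM. Both groups overlapped the DMSO libraries. In IFNγ alone ARRDC4 was at 4.09, 4.13 and 2.80 CPM, and with ABBV-075 added at 20.1, 20.1 and 19.0 CPM. ABBV-744 with IFNγ gave 6.75, 6.22 and 5.25 CPM at 50 nM and 9.66, 7.42 and 5.54 CPM at 500 nM, and neither group overlapped IFNγ alone. The log2 fold changes were 1.72 ± 0.27 for ABBV-075 against DMSO and 2.41 ± 0.25 for ABBV-075 with IFNγ against IFNγ. For ABBV-744 at 50 nM and 500 nM they were -0.29 ± 0.32 and 0.39 ± 0.28 against DMSO, and 0.75 ± 0.31 and 1.01 ± 0.31 against IFNγ.

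ARRDC3, an alpha-arrestin that helps to take adrenergic receptors and integrins off the membrane, was lower than DMSO with ABBV-744 at 50 nM and higher than IFNγ alone when IFNγ was present. Its CPM was 15.8, 18.9 and 22.9 in DMSO and 50.4, 29.3 and 28.0 with ABBV-075. With ABBV-744 it was 14.6, 8.17 and 14.9 CPM at 50 nM, below every DMSO library, and 16.9, 16 and 18.4 CPM at 500 nM. IFNγ alone gave 15.6, 16.8 and 13.4 CPM, and ABBV-075 with IFNγ gave 37.5, 37.8 and 32.8 CPM. ABBV-744 with IFNγ gave 30.4, 26.0 and 29.6 CPM at 50 nM and 25, 32.9 and 24.9 CPM at 500 nM, all above IFNγ alone. The log2 fold changes were 0.89 ± 0.23, -0.60 ± 0.21 and -0.16 ± 0.18 against DMSO, and 1.24 ± 0.16, 0.93 ± 0.16 and 0.84 ± 0.18 against IFNγ, for ABBV-075, ABBV-744 at 50 nM and at 500 nM. With a correction for each library's GC trend, the values in the same order were 0.45, -0.27 and 0.01 against DMSO, and 0.62, 0.11 and 0.19 against IFNγ. The antisense RNA ARRDC3-AS1 had at most 12 counts in any library, and 1.09% of the ARRDC3 reads were on the opposite strand. Of the other alpha-arrestins, ARRDC1 rose with ABBV-075 (log2 fold change 0.85 ± 0.19, adjusted p = 0.00444) and ARRDC2 fell (-0.77 ± 0.27, adjusted p = 0.0393), and ARRDC5 had 0 counts in all libraries.

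MLXIPL, which encodes the glucose sensor ChREBP, was at 43.4, 34.2 and 39.4 CPM in DMSO and at 67.3, 60.9 and 67.1 CPM with ABBV-075. It was at 52.8, 56.6 and 58.8 CPM with ABBV-744 at 50 nM and at 57.0, 58.0 and 49.5 CPM at 500 nM. All inhibitor libraries without IFNγ were therefore above all DMSO libraries, with log2 fold changes of 0.72 ± 0.14, 0.54 ± 0.13 and 0.50 ± 0.13. With a correction for each library's GC trend these became 0.86, 0.30 and 0.36. With IFNγ alone the libraries spread from 38.5 to 57.1 CPM, and ABBV-075 added to IFNγ gave 59.4, 67.4 and 92.5 CPM (log2 fold change 0.63 ± 0.14). The ABBV-744 groups with IFNγ (45.3 to 55.9 CPM at 50 nM and 48.3 to 67.4 CPM at 500 nM) overlapped IFNγ alone. MLXIP, which encodes MondoA, rose with ABBV-075 against DMSO (0.80 ± 0.16, adjusted p = 0.00204), from 19.8 to 20.6 CPM in DMSO to 31.8 to 40.9 CPM. MLX, the shared partner, had a log2 fold change of -0.21 ± 0.16 in that comparison (adjusted p = 0.313).

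TXN, the thioredoxin that TXNIP binds, was one of the steadier members. It ranged from 172.4 to 200.9 CPM in DMSO, from 158.2 to 183.4 CPM with ABBV-075, from 170.6 to 189.3 CPM with ABBV-744 at 50 nM and from 170.5 to 207.6 CPM at 500 nM, and these groups overlapped. With IFNγ alone it was at 212.0, 181.0 and 202.0 CPM, and with ABBV-075 and IFNγ at 168.6, 164.3 and 159.7 CPM, without overlap. The log2 fold changes were -0.15 ± 0.11 for ABBV-075 against DMSO and -0.28 ± 0.09 against IFNγ. TXN has a low GC content (36.8%), and with a correction for each library's GC trend these became -0.55 and -0.92. TXNRD1 stood at 175.6, 184.5 and 181.0 CPM in DMSO and at 348.9, 278.2 and 279.7 CPM with ABBV-075. Its log2 fold change was 0.72 ± 0.12, and 0.71 with the GC correction. ABBV-744 gave 193.8, 121.6 and 160.1 CPM at 50 nM and 200.6, 181.7 and 188.9 CPM at 500 nM, around the DMSO level. With IFNγ the values were 184.2, 160.3 and 153.3 CPM without inhibitor, 288.6, 270.6 and 257.1 CPM with ABBV-075, and 207.0 to 246.2 CPM over both ABBV-744 doses.

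On a scale of CPM per kilobase of exon, which allows levels of different genes to be compared, there were 26.2 ± 7.45 TXN transcripts for each TXNIP transcript in DMSO (SD, n = 3) and 3.76 ± 0.893 with ABBV-075. The ratio was 16.1 ± 2.73 with ABBV-744 at 50 nM and 12.8 ± 1.89 at 500 nM. With IFNγ it was 22.9 ± 3.19 without inhibitor, 4.24 ± 0.152 with ABBV-075, 22.1 ± 1.13 with ABBV-744 at 50 nM and 12.9 ± 0.964 at 500 nM. TXN RNA thus stayed in excess of TXNIP RNA in every group, by the smallest margin under ABBV-075, and since TXNIP chose the members this ratio is a description. The ratio of TXNRD1 to TXN was 0.147 ± 0.00793 in DMSO and 0.268 ± 0.0167 with ABBV-075, and 0.126 ± 0.0104 with IFNγ and 0.249 ± 0.00784 with IFNγ and ABBV-075.

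**Figure D2:**
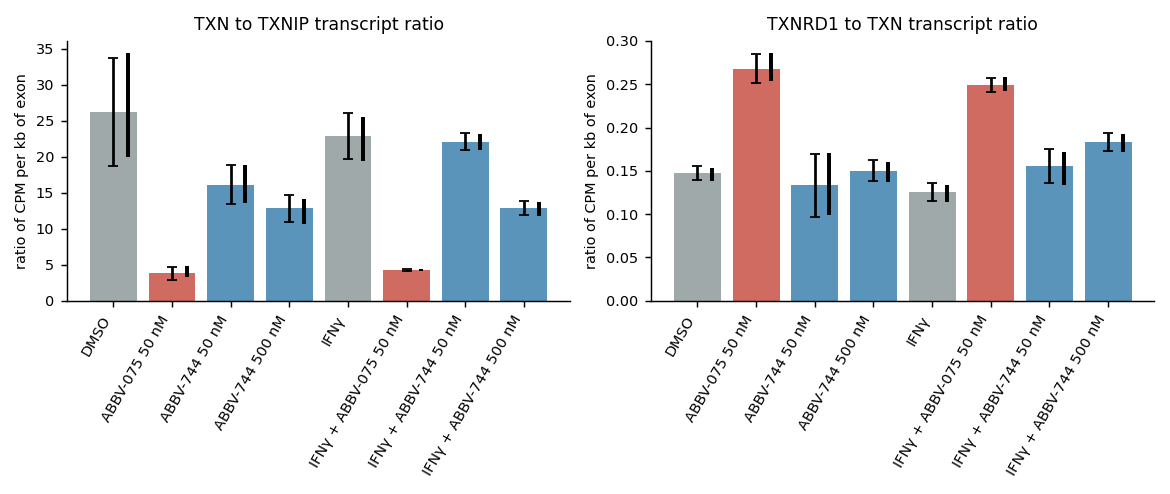
Ratio of TXN to TXNIP (left) and of TXNRD1 to TXN (right) in CPM per kilobase of exon, by group; bars are means of 3 libraries, capped whiskers the SD and thick lines the lowest to the highest library. The TXN to TXNIP ratio is 26.2 in DMSO and 3.76 with ABBV-075, and 22.9 and 4.24 when IFNγ is present, with both ABBV-744 doses between these levels.

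The sestrins did not move together. SESN3 was the only one of the 3 with a rise under ABBV-075: it had 2.68, 3.55 and 1.19 CPM in DMSO (5 to 16 counts) and 14, 11.8 and 11.1 CPM with ABBV-075 (37 to 58 counts). In IFNγ alone it had 1.36, 1.48 and 1.12 CPM (4 or 5 counts), and with ABBV-075 added 12.4, 9.52 and 7.53 CPM. The ABBV-744 libraries without IFNγ (1.74 to 4.31 CPM over both doses) overlapped DMSO, and those with IFNγ (3.32 to 5.54 CPM) were above IFNγ alone. The log2 fold changes were 2.27 ± 0.32 and 2.87 ± 0.36 for ABBV-075 against DMSO and against IFNγ, and 1.42 ± 0.43 and 1.65 ± 0.43 for ABBV-744 at 50 nM and 500 nM against IFNγ, all resting on few counts. With the GC correction these 4 values became 1.85, 2.26, 0.61 and 1.00. In the comparisons of ABBV-744 or IFNγ with DMSO, SESN3 did not pass the filter on low counts and was not fitted.

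SESN1 had 18.8 to 20.2 CPM in DMSO and 15.8 to 21.0 CPM with ABBV-075, and the group means over all 8 groups lay between 16.2 and 21.1 CPM. SESN2, the most stress-responsive sestrin, had 20.6 to 30.6 CPM in DMSO and 23.2 to 33.7 CPM with ABBV-075. The log2 fold changes for ABBV-075 against DMSO were -0.03 ± 0.18 for SESN1 and 0.06 ± 0.20 for SESN2. SESN2 was lowest with IFNγ and ABBV-744 at 50 nM, at 19.0, 15.3 and 19.3 CPM, against 26.7, 31.0 and 35.8 CPM in IFNγ alone. In DMSO there were 39.9 ± 25.1 SESN2 and 13.9 ± 7.93 SESN1 transcripts for each SESN3 transcript, per kilobase of exon, and with ABBV-075 6.93 ± 2.13 and 2.29 ± 0.412. SESN3 remained the least abundant of the 3 sestrins per kilobase in every group.

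Read over all 9 members, the comparisons with a control give the following counts, which the choice of the members fixes in part. A gene was called at an adjusted p of at most 0.05 over all genes tested in edgeR's quasi-likelihood test. For the members a call against a control is a description and not a test, since such differences led to their choice. With ABBV-075 against DMSO, 6 of the 9 members were called higher, while 19.8% of all genes tested were, and none was called lower, while 19.6% of all genes were. The members' median log2 fold change was 0.72, against 0.03 for all genes. With the GC correction TXN was called lower (-0.55) and ARRDC3 stood at 0.45 in place of 0.89, and ARRDC3 was not called without replicate 1 of DMSO (0.77). SESN3 passed the filter on low counts through the group in which it was high. TXNIP, ARRDC4 and SESN3 also had a log2 fold change of at least 1.5, the study's threshold, which 1.09% of all genes passed upward. With ABBV-744 at 50 nM against DMSO, TXNIP and MLXIPL were called higher (8.81% of all genes) and ARRDC3 lower (10.1%) of 8 members tested, and none passed the study's threshold upward (0.09%). These 3 calls rest on single libraries or on the fit used. TXNIP was not called without replicate 3 of DMSO (0.46) or of ABBV-744 (0.49), nor MLXIPL without replicate 2 of DMSO (0.45). ARRDC3 was not called by DESeq2 (-0.61), with the GC correction (-0.27) or in most other alternative fits. With the GC correction MLXIPL, with a GC content of 63.2%, was at 0.30 at 50 nM and was not called either. At 500 nM, TXNIP and MLXIPL were called higher (7.48%), none lower (7.8%), and none passed the study's threshold (0.027%). MLXIPL was not called without replicate 2 of DMSO (0.42).

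The same counts in the presence of IFNγ were 6 members higher (28.2% of all genes) and 1, TXN, lower (28.4%) for ABBV-075, with TXNIP, ARRDC4 and SESN3 past the study's threshold (2.41%). For ABBV-744 at 50 nM, ARRDC4, ARRDC3, TXNRD1 and SESN3 were called higher (27.4%) and SESN2 lower (24.3%), and none passed the study's threshold upward (1.94%). At 500 nM, the 5 members TXNIP, ARRDC4, ARRDC3, TXNRD1 and SESN3 were called higher (22.9%) and SESN2 lower (22.8%), with SESN3 past the study's threshold (1.29%). In all of these comparisons SESN3 passed the filter on low counts through the inhibitor group, with 4 or 5 counts in IFNγ alone. The ARRDC4 call at 50 nM was lost in all 6 fits that left out 1 library and by DESeq2 (0.74), and at 500 nM without replicate 3 of IFNγ (0.83) or replicate 1 of ABBV-744 (0.82). The SESN2 call at 500 nM was lost by DESeq2 (-0.40) and in 4 of the 6 fits, those without replicate 2 or 3 of IFNγ and without replicate 1 or 2 of ABBV-744 (-0.30 to -0.44). With the GC correction, ARRDC4, ARRDC3 and SESN3 were no longer called at 50 nM (log2 fold changes of 0.53, 0.11 and 0.61). MLXIPL (0.47) and TXN then were, and TXN went from 0.18 to -0.67. At 500 nM, ARRDC3 (0.19), SESN2 (-0.18) and SESN3 (1.00) were no longer called, and MLXIPL (0.47), TXN (-0.84) and SESN1 (-0.45) were.

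**Figure D3:**
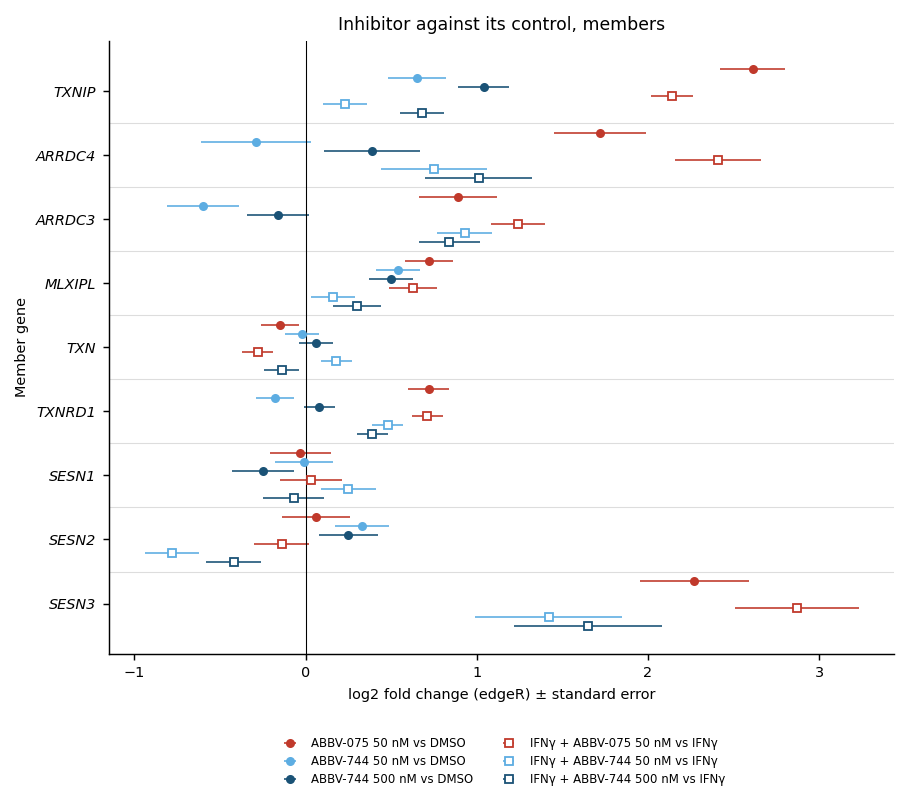
Log2 fold change (x axis) of each member (y axis) for every inhibitor treatment against its control, with standard errors; filled circles are comparisons with DMSO and open squares comparisons with IFNγ alone, in red for ABBV-075, light blue for ABBV-744 at 50 nM and dark blue at 500 nM. The red symbols of TXNIP (2.61 and 2.14), SESN3 (2.27 and 2.87) and ARRDC4 (1.72 and 2.41) lie farthest to the right.

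At the matched dose of 50 nM, ABBV-075 was compared with ABBV-744 directly. The time of the ABBV-744 treatment is not known to match, and the ABBV-075 libraries are those in which the members stood out, so that the differences are given with 95% confidence intervals and without a p-value. Without IFNγ the log2 difference, ABBV-075 minus ABBV-744, was 1.98 (1.58 to 2.38) for TXNIP, 2.02 (1.45 to 2.59) for ARRDC4 and 2.42 (1.8 to 3.03) for SESN3. It was 1.51 (0.87 to 2.15) for ARRDC3 and 0.92 (0.55 to 1.3) for TXNRD1. These 5 members were called, which is a description and not a test, while 40.8% of all genes were called in this comparison. The choice of the members fixes this count in part. SESN3 passed the filter on low counts through the ABBV-075 group, with 6 to 9 counts under ABBV-744 at 50 nM. The intervals of MLXIPL (-0.09 to 0.50), TXN (-0.37 to 0.15), SESN1 (-0.42 to 0.42) and SESN2 (-0.63 to 0.15) included 0, which leaves room for differences of those sizes.

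With IFNγ present the difference between the compounds was 1.99 (1.78 to 2.21) for TXNIP and 1.74 (1.32 to 2.16) for ARRDC4, close to the values without IFNγ. For SESN3 it was 1.53 (0.96 to 2.10) and for ARRDC3 0.38 (0.11 to 0.65). MLXIPL (0.55, 0.29 to 0.80), SESN2 (0.71, 0.39 to 1.04) and TXNRD1 (0.30, 0.14 to 0.47) were also higher with ABBV-075, and TXN was lower (-0.39, -0.57 to -0.21). In all, 8 of the 9 members were called against 33.7% of all genes. This count is again a description that the choice of the members fixes in part. ARRDC3 was not called by DESeq2, by library size scaling (0.26), with all libraries in the fit (0.33), or without replicate 2 of ABBV-075 (0.34) or replicate 2 or 3 of ABBV-744 (0.32 and 0.40), and TXNRD1 was not called by library size (0.18) or with all libraries (0.25). With the GC correction, TXNIP (1.81 and 2.08 without and with IFNγ), ARRDC4 (1.8 and 1.82) and SESN3 (1.65 and 1.66) kept most of the difference, and ARRDC3 was at 0.74 and 0.52. The correction also moved MLXIPL from 0.21 to 0.56 and TXN from -0.11 to -0.89 without IFNγ, where both then were called, and MLXIPL from 0.55 to 0.25 with IFNγ, where it no longer was.

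**Figure D4:**
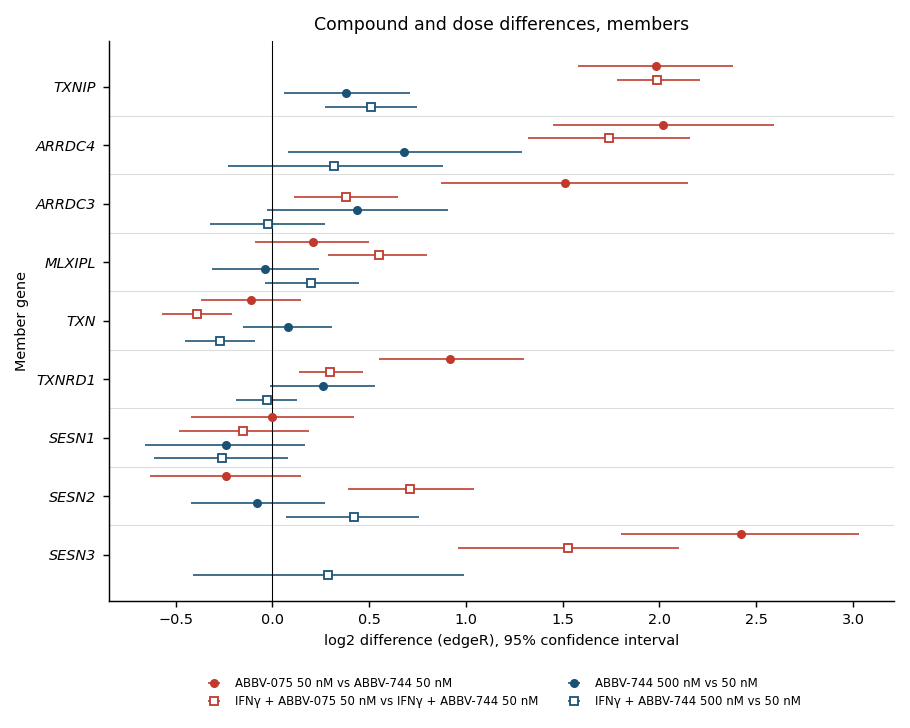
Log2 difference (x axis) with 95% confidence intervals for each member (y axis) between ABBV-075 and ABBV-744 at 50 nM (red) and between 500 nM and 50 nM of ABBV-744 (blue); circles are without IFNγ and squares with it, and SESN3 was not fitted for the dose comparison without IFNγ. The red symbols of TXNIP, ARRDC4 and SESN3 lie between 1.53 and 2.42, and the blue symbols lie at or below 0.68.

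The doses of ABBV-744 were compared within each set of groups. Without IFNγ the log2 difference of 500 nM against 50 nM was 0.38 (0.06 to 0.71) for TXNIP, 0.68 (0.08 to 1.29) for ARRDC4 and 0.44 (-0.03 to 0.91) for ARRDC3, and the libraries of both doses did not overlap for ARRDC4 and ARRDC3. In edgeR's test none of the 8 members tested was called (lowest adjusted p = 0.799), DESeq2 called 0 as well, and 2, TXNIP and ARRDC4, had an unadjusted p under 0.05. Of all genes, 0.0274% were called (3 of 10967), and 633 of the 10967 had an unadjusted p under 0.05. With IFNγ, TXNIP was the 1 member called, at 0.51 ± 0.12 (adjusted p = 0.014), with all libraries of 500 nM above all of 50 nM, while 1.7% of all genes were called. The TXNIP call was lost when replicate 1 or 3 of IFNγ with ABBV-744 at 50 nM was left out (adjusted p = 0.0873 and 0.0811) and when replicate 2 at 500 nM was (0.0967), and DESeq2 called no member. TXN went the other way, at -0.27 (-0.45 to -0.09, adjusted p = 0.13).

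With IFNγ alone against DMSO, none of the 8 members tested was called by edgeR or DESeq2, in a comparison that called 3.46% of all genes. Of these members 1, ARRDC4, had an unadjusted p under 0.05, as had 1586 of all 11217 genes tested. The DMSO libraries are the ones that served to choose the members. The log2 fold changes ran from -0.67 (-1.33 to 0.00) for ARRDC4 to 0.28 (-0.03 to 0.58) for SESN2, with adjusted p of at least 0.35. TXNIP was at 0.23 (-0.08 to 0.54) and TXNRD1 at -0.12 (-0.29 to 0.04). The intervals leave room for changes of up to these bounds.

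The difference between the response to an inhibitor with and without IFNγ was tested as an interaction. The DMSO and inhibitor libraries in it are among those that served to choose the members. For ABBV-075 none of the 9 members was called by edgeR or DESeq2, and 0.0347% of all genes (4 of 11530) were called. Of the members 1, TXNIP, had an unadjusted p under 0.05, as had 775 of the 11530 genes. The interaction of TXNIP was -0.49 (-0.95 to -0.03, adjusted p = 0.729), that of ARRDC4 0.68 (-0.10 to 1.46) and that of SESN3 0.58 (-0.51 to 1.67). For ABBV-744 at 50 nM, 4 of the 9 members were called, while 51.6% of all genes were, and at 500 nM 3 of 9, while 33.5% of all genes were, so that the members' counts are near those of all genes. ARRDC3 had a higher response with IFNγ by 1.5 ± 0.27 on the log2 scale at 50 nM (adjusted p = 3.64e-05) and by 1.03 ± 0.25 at 500 nM (0.00183). TXNRD1 had a higher response by 0.62 ± 0.16 (0.00155) and 0.32 ± 0.13 (0.0468), and SESN2 a lower one, by -1.13 ± 0.22 (0.000119) and -0.65 ± 0.24 (0.0349). At 500 nM the TXNRD1 call was lost in 9 and the SESN2 call in 8 of the 12 fits that left out 1 library each, and both by DESeq2 (adjusted p = 0.0522 and 0.0641). SESN3 is the member called at 50 nM alone, and its values, 1.51 ± 0.61 and 1.46 ± 0.63, are given as a description, since it had 4 to 16 counts in the control libraries, passed the filter here only through the groups in which it was higher, and lost the call in 10 of the 12 fits.

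The GC trend moved with this interaction. Its slope, in log2 units for each 10 points of GC content, was 0.22, 0.45 and 0.25 in the libraries of ABBV-744 at 50 nM and 0.10, 0.35 and 0.16 at 500 nM. With IFNγ it was -0.30, -0.29 and -0.27 at 50 nM and -0.26, -0.19 and -0.09 at 500 nM, without overlap with the libraries lacking IFNγ. The members called higher in the interaction at 50 nM have a GC content of 37.2% (ARRDC3), 37.1% (SESN3) and 44.6% (TXNRD1), and the member called lower has 59.6% (SESN2). Of the members not called, TXN (36.8%) was at 0.17, SESN1 (40.6%) at 0.23 and ARRDC4 (43.4%) at 1.00. TXNIP (43.8%) was at -0.46 and MLXIPL (63.2%) at -0.41. With the GC correction the interaction at 50 nM was 0.38 for ARRDC3 (adjusted p = 0.273), 0.40 for SESN3 (0.72), 0.47 for TXNRD1 (0.0071) and -0.55 for SESN2 (0.0432), and that of TXN, which was 0.17, became -1.02 (9.95e-07). The number of all genes called at 50 nM went from 5905 to 2336. Other library measures moved with it at 50 nM: 66.15% to 69.38% of reads aligned to several places and 14.82% to 17.3% fell outside genes without IFNγ, against 57.55% to 59.55% and 22.79% to 24.15% with IFNγ. At 500 nM the multimapping shares overlapped (63.97% to 68.05% and 64.26% to 66.26%). The part of these measures in the interaction was not tested.

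**Figure D5:**
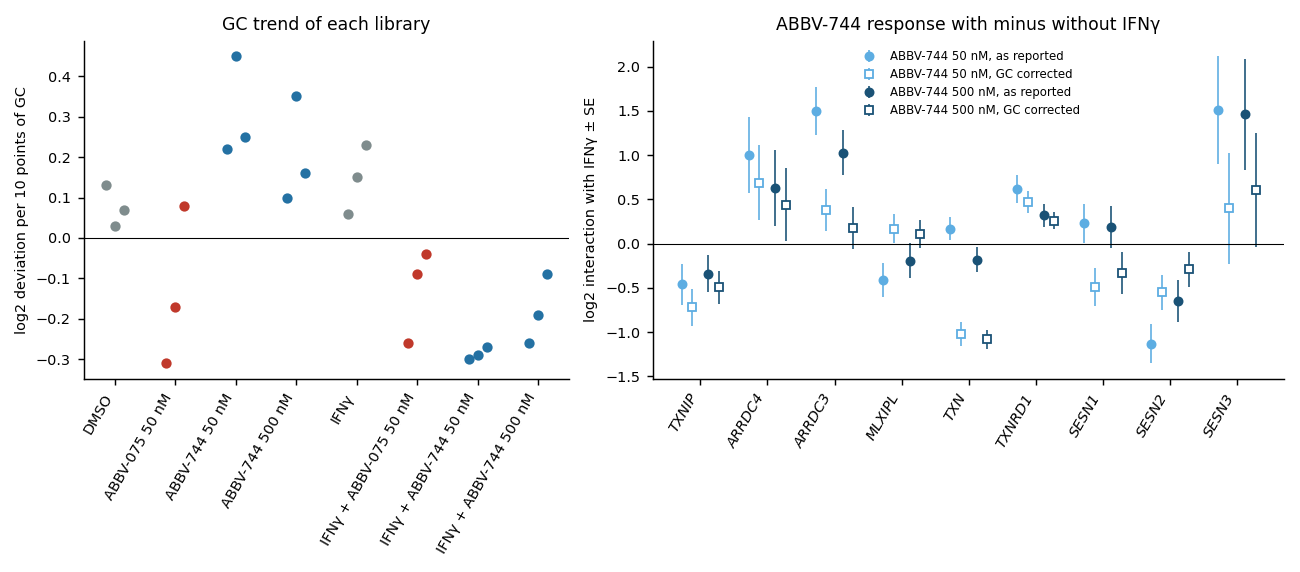
Left: change in log2 deviation for each 10 points of GC content (y axis) in each library, by group. Right: interaction of ABBV-744 with IFNγ (y axis, log2 ± standard error) for each member at 50 nM (light blue) and 500 nM (dark blue), as reported (filled circles) and with the GC correction (open squares). The ABBV-744 libraries lie between 0.10 and 0.45 without IFNγ and between -0.30 and -0.09 with it, and the correction takes ARRDC3 from 1.5 to 0.38 and TXN from 0.17 to -1.02 at 50 nM.

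The other genes of the pathways were read from lists of their known members in the comparison of ABBV-075 with DMSO, beside the 19.8% of all genes that rose and 19.6% that fell. Of 10 tested ChREBP and MondoA targets, 1 rose and 5 fell (median log2 fold change -0.59). TXNIP and ARRDC4, targets of the same factors, are not in this list and were chosen with their rise known. The part of these factors was not tested. GPD1, the glycerol-3-phosphate dehydrogenase of the cytosol, fell by 2.64 on the log2 scale (adjusted p = 8.35e-07) and PKLR, the liver pyruvate kinase, fell by 1.5 (0.000752). Of 6 genes of glucose entry, none rose and 4 fell, led by SLC2A2 (GLUT2, -2.66 ± 0.17, adjusted p = 7.87e-07) and HK2 (hexokinase 2, -1.44 ± 0.16, adjusted p = 3.89e-05). With IFNγ present, where 28.2% of all genes rose and 28.4% fell, 1 of the 10 targets rose and 8 fell, and 5 of the 6 entry genes fell.

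Among 5 tested partners of TXNIP protein, NEDD4, a ubiquitin ligase, rose (1.12 ± 0.27, adjusted p = 0.00657) and its relative NEDD4L fell (-0.70 ± 0.11, 0.000615). In all, 2 of the 5 rose and 1 fell. Of 18 tested genes of the thioredoxin and glutaredoxin system, 3 rose and 5 fell. The mitochondrial reductase TXNRD2 fell by 1.00 (adjusted p = 0.018) while sulfiredoxin SRXN1 rose by 0.81 (0.000273), and the median of the system was -0.12. Of 13 NRF2 pathway genes, 5 rose and 3 fell, with HMOX1, heme oxygenase 1, at -1.54 ± 0.15 (adjusted p = 1.57e-05).

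The pathways that are known to drive sestrins did not share 1 direction. Of 16 p53 targets, 4 rose and 6 fell, with TP53INP1 at 1.57 ± 0.15 (adjusted p = 1.76e-05) and RRM2B, a ribonucleotide reductase subunit, at 1.45 ± 0.24 (0.000738). Of 11 ATF4 pathway genes, none rose and 6 fell, led by TRIB3 (-1.81 ± 0.13, adjusted p = 1.64e-06) and STC2 (-1.48 ± 0.16, adjusted p = 3.46e-05). Of 9 FOXO pathway genes, 3 rose and none fell, led by the cyclin CCNG2 (1.25 ± 0.31, adjusted p = 0.00764) and BCL2L11 (BIM, 0.89 ± 0.19, adjusted p = 0.00352). Of 27 genes of the sestrin to mTORC1 branch, 6 rose and 3 fell, and the Rag GTPase genes RRAGC (1.17 ± 0.22, adjusted p = 0.00134) and RRAGD (-1.32 ± 0.33, adjusted p = 0.00737) went in opposite directions. With IFNγ alone against DMSO, at most 1 gene of any of these lists was called in either direction, among them SLC2A2 (-0.71, adjusted p = 5.9e-05) and the glutaredoxin GLRX (0.50, adjusted p = 0.000199).

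The genes most like TXNIP in log2 CPM over the 24 libraries, among 9385 genes whose mean log2 CPM was 3 or more, were NEAT1 (Pearson r = 0.97), FUCA1 (0.95), CNNM4 (0.95), FAM220A (0.94) and H3F3B (0.94). NEAT1, the long RNA of paraspeckles, had a mean of 154.4 CPM in DMSO and 738.2 CPM with ABBV-075. For ARRDC4 they included OAT (0.94), HEATR5A (0.92) and H3F3B (0.92), and for SESN3 they were RTF1 and OAT (0.93 each), HEATR5A and PPFIA1 (0.92 each) and NEAT1 (0.91). Between members, r was 0.89 for TXNIP with ARRDC4, 0.88 for TXNIP with SESN3 and 0.92 for ARRDC3 with TXNRD1, while TXNIP with SESN1 gave -0.07 and with SESN2 0.12. These correlations describe 24 points that share groups, depth and the GC trend.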

How the data were processed

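RNA of HepG2 cells was sequenced in 24 libraries, 8 groups of 3, grouped by the treatment in the labels. The deposited values are raw read counts per gene symbol, made by the authors with Trimmomatic 0.33 and STAR 2.7.1 on hg38 (per the labels); the annotation is not given in the sources used here. Multimapping reads are not in these counts, so genes with near-identical copies may be undercounted. The sense column was used. Each comparison was fitted across all genes in edgeR 4.0.16 (R 4.3.3; filterByExpr, TMM, quasi-likelihood test, Benjamini-Hochberg adjustment) on the libraries compared. Genes were called at an adjusted p of at most 0.05, and the study's thresholds add a log2 fold change of at least 1.5 in size. Correlations used log2 CPM with a prior count of 2. Levels per kilobase used GENCODE v44 exon lengths. Alternatives were DESeq2 1.42.0, RLE or library size scaling, no filter, all libraries, replicate block, both strands, a lowess GC correction (span 0.3) and leaving out each replicate. The fits were also run on simulated counts. The simulation had no GC trend and changed only well-counted genes, so it does not cover the GC trend or low counts met here. The 9 members and all gene lists were chosen with earlier results of these data known. Named genes are the members, the 2 largest called changes per list under ABBV-075, close relatives and partners, and the 5 genes most correlated with TXNIP, ARRDC4 and SESN3. Some genes that this rule names are not reported here. At 2978982 to 4304103 gene counts per library, SESN3 had as few as 4 counts.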

Additional observations from a re-analysis of the deposited data

Results flagged for a closer look

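The interaction of ABBV-744 with IFNγ was called in edgeR's quasi-likelihood fit for 4 of 9 members at 50 nM and 3 of 9 at 500 nM (n = 3 in each of 4 groups), while 51.6% and 33.5% of all genes were called, so that the members' shares are near or below those of all genes. The DMSO and inhibitor libraries in these fits are among those that served to choose the members. ARRDC3 responded more with IFNγ by 1.5 on the log2 scale at 50 nM and by 1.03 at 500 nM. For TXNRD1 the difference was 0.62 at 50 nM and 0.32 at 500 nM, and for SESN2 it was -1.13 and -0.65. At 500 nM these calls were lost in 9 (TXNRD1) and 8 (SESN2) of the 12 fits that left out 1 library, and by DESeq2. SESN3 is listed with a value of 1.51 at 50 nM, a description that rests on 4 to 16 counts in the control libraries and that lost its call in 10 of the 12 fits. With the GC correction, TXNRD1 (0.47) and SESN2 (-0.55) at 50 nM were still called, and ARRDC3 (0.38 and 0.18), SESN3 (0.40), and TXNRD1 (0.26) and SESN2 (-0.29) at 500 nM were not. The GC slopes of the ABBV-744 libraries with and without IFNγ did not overlap, and their part in these differences was not tested further.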

How the results depend on the processing

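Of 1863 refitted member log2 fold changes, 1695 kept direction and side of the threshold, 94 lost and 32 gained the call, and 39 uncalled values changed sign. The other 3 reversed, all of them TXN with the GC correction: 0.35 for ABBV-744 at 50 nM against DMSO, -0.67 with IFNγ and -1.02 for their interaction. Counts of all genes called moved by over 1.5 times as follows. DESeq2 gave 1216 for ABBV-744 at 50 nM against DMSO (2102 as reported), 1042 at 500 nM (1700), 7 for 500 nM against 50 nM (3), 85 with IFNγ (187) and 13 for the ABBV-075 interaction (4). The GC correction gave 1196 for ABBV-744 at 50 nM against DMSO, 16 and 99 for the dose without and with IFNγ, 27 for the ABBV-075 interaction, 3842 for IFNγ with ABBV-744 at 50 nM against IFNγ (5766), and 2336 and 1915 for the ABBV-744 interactions (5905 and 3827). Without the filter, 13 genes were called for the dose without IFNγ and 45 for the ABBV-075 interaction, and with all 24 libraries in the fit 9 and 2 for the dose without and with IFNγ. Members called went from 3 to 1 for ABBV-744 at 50 nM against DMSO by library size, from 1 to 0 for the dose with IFNγ by DESeq2, library size or all libraries, and from 3 to 1 for the 500 nM interaction by DESeq2 or the GC correction. The cause was not tested.

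The replicate numbers did not pair the libraries (no comparison had every correlation of deviations over 0.1). The replicate block raised the dose comparison without IFNγ from 3 to 320 genes and from 0 to 2 members (TXNIP and TXNRD1); there the correlations were 0.28, 0.38 and 0.05 and every library correlated best with its own number, a hint from the data and not the design.

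Leaving out 1 library gave 708 to 2671 genes and 1 to 4 members for ABBV-744 at 50 nM against DMSO, and 793 to 2003 genes and 1 to 2 members at 500 nM, both lowest without DMSO replicate 2. It gave 2651 to 5722 genes for ABBV-075 against ABBV-744 (lowest without ABBV-075 replicate 2), 0 to 10 for the dose (0 without replicate 3 at 50 nM), 64 to 473 genes and 0 to 2 members for the dose with IFNγ (64 without replicate 2 at 500 nM), 3 to 200 genes for the ABBV-075 interaction (200 without ABBV-075 replicate 1), and 1 to 3 members for the 500 nM interaction. Scaling by library size moved the share of called genes that were higher from 46.6% to 25.4% and from 48.9% to 30.8% for ABBV-744 at 50 nM and 500 nM against DMSO, from 79.9% to 55.1% for IFNγ against DMSO, from 49.6% to 29.1% for the compounds with IFNγ, from 82.9% to 45.2% for the dose with IFNγ, and from 48.5% to 66.1% and 55.3% to 67.7% for the ABBV-744 interactions.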
